A study of Mus musculus with 48 samples.

Results

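Transcripts of 33 genes of endoplasmic reticulum (ER) protein folding and the unfolded protein response were followed in NMM cells, a mouse melanoma line with a mutated NRAS gene, over 12 culture conditions and 4 durations. The genes were taken by name from the deposited table of read counts per gene, which holds 49671 genes; all 33 were found, and 32 of them were among the 12203 genes that passed a filter on low counts. The member that did not pass, Derl3, had 0 counts in all 48 libraries. The cells received 100 ng/ml IFNγ together with 10 ng/ml TNF (called the combination here), 0.1, 1 or 10 ng/ml TNF, 0.01, 1 or 100 ng/ml IFNγ, 5000 U/ml IFNα1, 10 ng/ml TGF-β, 2 ng/ml lymphotoxin α1β2, 6000 U/ml IL-2, or no cytokine (unstimulated). Each condition had 1 library of poly(A) RNA after 2, 6, 12 and 24 h of continuous exposure. All groups were the same line grown in vitro, and the labels do not say whether the libraries came from separate cultures. The 4 libraries of a condition are therefore durations and not replicates. The p-values below set a difference against scatter pooled over all 48 libraries, and they do not measure the spread between replicates.

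The ER folds and modifies secreted and membrane proteins with the help of HSP70 and HSP90 family chaperones, lectin chaperones and disulfide isomerases. When unfolded protein accumulates there, 3 membrane sensors respond: IRE1 (gene Ern1), which splices the mRNA of the transcription factor Xbp1, PERK (Eif2ak3), which phosphorylates the translation factor eIF2α and favours translation of ATF4, and ATF6, which is cut in the Golgi to release a transcription factor. Spliced XBP1 and cleaved ATF6 bind ER stress response elements in promoters of chaperone genes and of genes for ER-associated degradation, the route by which misfolded proteins are moved to the cytosol and destroyed. The measured values are levels of mRNA; splicing of Xbp1, phosphorylation and cleavage of the sensors were not measured.

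Library totals lay between 5612907 and 9663207 counts. A single count stood for 0.103 to 0.178 CPM (counts scaled to the library total), and the 33 genes together took 0.876% to 1.28% of a library. Axl stood at 1773 to 2432 CPM and Sox9 at 37.3 to 126 CPM, and Mitf, the melanocyte master regulator, at 3.50 to 12.6 CPM. Of the other melanocyte lineage genes, Mlana and Dct had 0 counts over all libraries, and Tyr, Tyrp1 and Sox10 had 2 counts each. Pmel had 152, Ngfr 148 and S100b 99. Of 7 markers of T and NK cells, Cd3e, Cd3d, Cd8a, Cd4 and Nkg7 had 0 counts, Gzmb 6 and Ptprc 14. Some genes listed as markers of other cell types were detected: Dcn at 7.01 to 47.6 CPM and Pdgfra at 3.39 to 21.9 CPM. Cdh5 stood at 2.55 to 26.7 CPM and Cd68 at 1.55 to 5.45 CPM. Of the other listed fibroblast genes, Col1a2 had 339 counts over all libraries, Col1a1 161 and Lum 8. Of the other endothelial genes Pecam1 had 39, Tek 11 and Kdr 6. Of the other macrophage genes Csf1r had 21, Lyz2 5, Itgam 3 and Adgre1 0. In such bulk RNA a change in the level per cell and a change in the share of cells that express a gene cannot be told apart.

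With the combination, a small set of ER genes rose, led by Hspa5 and Herpud1. Hspa5, which encodes BiP, the main HSP70 chaperone of the ER, and Herpud1, an organiser of the degradation complex, were both higher by 0.74 ± 0.14 on the log2 scale as a mean over the 4 durations (adjusted p = 4.35e-05 for Hspa5 and 4.3e-05 for Herpud1; ± is an approximate standard error). Syvn1, the ubiquitin ligase of ER-associated degradation, rose by 0.53 ± 0.11 (adjusted p = 0.000271) and its partner Sel1l by 0.24 ± 0.07 (adjusted p = 0.00273). Manf, a secreted protein that binds BiP, rose by 0.25 ± 0.07 (adjusted p = 0.00676), Ern1 by 0.41 ± 0.14 (adjusted p = 0.0162) and Dnajb9, an HSP40 cofactor of BiP, by 0.41 ± 0.16 (adjusted p = 0.0429). In all, 7 of the 32 tested members were called higher, at an adjusted p under 0.05, against 20.9% of all genes tested, and 3 were called lower against 21.2% of all genes. The 3 lower ones were Eif2ak3 (-0.37 ± 0.13, adjusted p = 0.022), the disulfide isomerase P4hb (-0.13 ± 0.05, adjusted p = 0.0345) and Dnajc3, another HSP40 cofactor (-0.17 ± 0.07, adjusted p = 0.039). The share of members called higher was thus near that of all genes, and 3 of 32 is a smaller share than that of all genes called lower. The median change of the 32 members was 0.05, beside -0.03 over all genes. The number of members called depended on the fit. It was 14 without the 2 h libraries, 12 in the 12 h and 24 h libraries alone, 6 without the 12 h libraries and 5 without those of 24 h. It was 4 without the duration term that pairs the libraries, 2 in the 2 h and 6 h libraries alone and 1 (Ern1) when the 2 compared groups were fitted alone. Shares of all genes called in these fits are not given here, so the counts show only how the calls of the members moved.

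**Figure D1:**
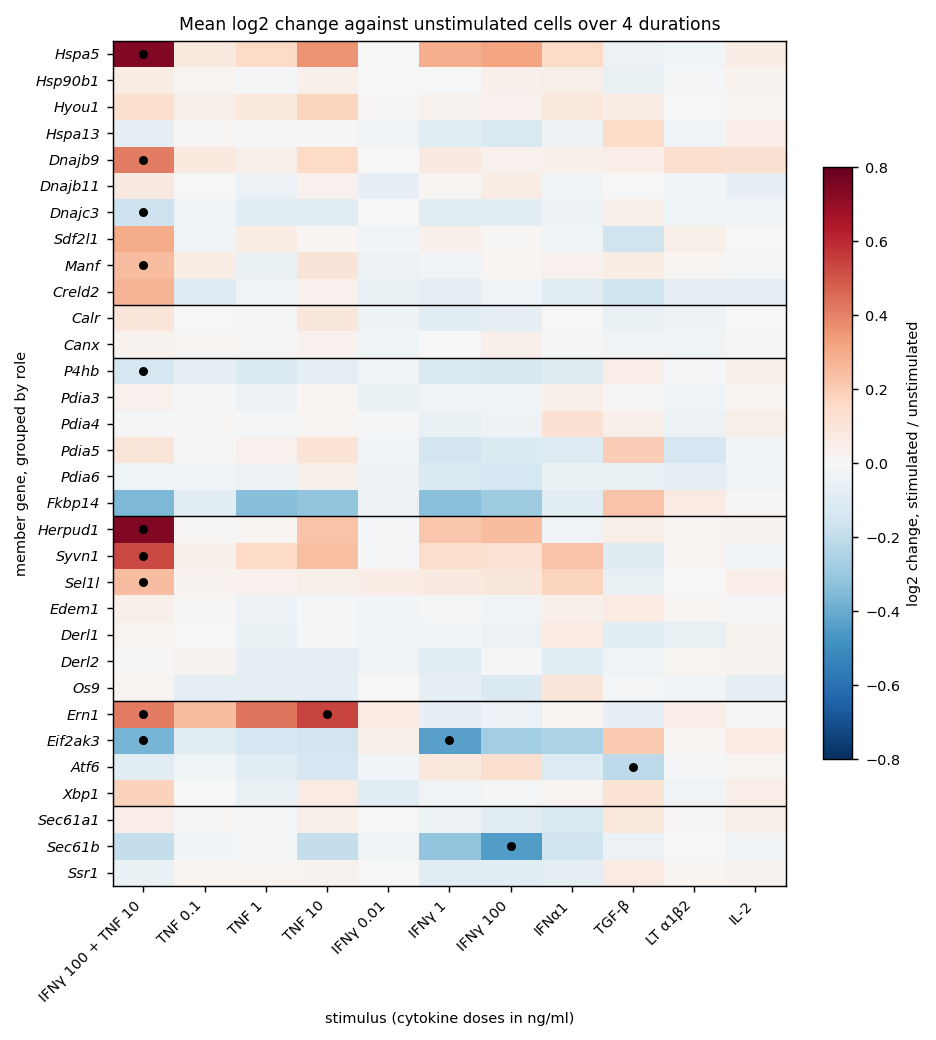
Mean log2 change over the 4 durations for the 32 tested members (rows, grouped by role) in each of the 11 cytokine conditions against unstimulated cells (columns); black dots mark changes with an adjusted p under 0.05. The combination column holds 10 dots, 7 on genes that were higher and 3 on genes that were lower, and the other columns hold at most 1 dot each.

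Hspa5 stood at 1349.9, 1372, 2242 and 2806 CPM with the combination after 2, 6, 12 and 24 h, against 1145, 1142, 1283 and 1029 CPM in unstimulated cells. The combination was higher at every duration, and the groups' 4 values did not overlap. Herpud1 stood at 38.6, 43.9, 50.5 and 77.5 CPM with the combination and at 34, 35.4, 28 and 28.5 CPM in unstimulated cells, again without overlap. Syvn1 stood at 82.7, 124, 151 and 193 CPM with the combination, against 75.5, 98.8, 109 and 92.0 CPM in unstimulated cells, so that only the 2 h value of the combination lay within the unstimulated range. These 3 members kept their call when the libraries of any 1 duration were left out, with changes of 0.45 to 0.90 for Hspa5, 0.45 to 0.91 for Herpud1 and 0.32 to 0.64 for Syvn1. The lowest value of each came from leaving out 24 h. All 3 lost the call when the combination and unstimulated groups were fitted alone. Herpud1 and Syvn1 also lost it in the 2 h and 6 h libraries alone.

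These 3 members had the largest mean increases called with the combination, and each carries an ER stress response element just before its start. Their upstream sequences are shown, and called members without an element in the searched window are named below. The classical element (ERSE) was searched as CCAAT and CCACG with 9 bases of any kind between them and the shorter ERSE-II as ATTGG and CCACG with 1 base between them, on both strands of the 300 bases from 250 before to 50 after each start in RefSeq (GRCm38.p6). The table of starts held 27 of the 33 members. The 250 bases upstream of the start are given 5′ to 3′ on the strand of the gene, with the element in capitals: an ERSE 65 to 47 bases before the start of Hspa5 (chr2:34771840-34772089, plus strand), an ERSE-II 52 to 42 bases before that of Herpud1 (chr8:94386179-94386428, plus strand) and an ERSE 44 to 26 bases before that of Syvn1 (chr19:6046326-6046575, plus strand).
Hspa5: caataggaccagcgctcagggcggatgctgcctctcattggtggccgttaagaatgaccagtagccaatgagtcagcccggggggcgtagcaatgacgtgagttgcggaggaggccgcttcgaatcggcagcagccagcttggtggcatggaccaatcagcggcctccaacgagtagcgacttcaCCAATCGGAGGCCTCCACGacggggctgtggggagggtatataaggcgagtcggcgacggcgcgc
Herpud1: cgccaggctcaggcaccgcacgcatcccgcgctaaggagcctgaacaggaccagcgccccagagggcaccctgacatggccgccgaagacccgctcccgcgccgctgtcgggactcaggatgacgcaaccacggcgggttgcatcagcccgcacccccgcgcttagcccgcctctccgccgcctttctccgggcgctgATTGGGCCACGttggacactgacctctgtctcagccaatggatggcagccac
Syvn1: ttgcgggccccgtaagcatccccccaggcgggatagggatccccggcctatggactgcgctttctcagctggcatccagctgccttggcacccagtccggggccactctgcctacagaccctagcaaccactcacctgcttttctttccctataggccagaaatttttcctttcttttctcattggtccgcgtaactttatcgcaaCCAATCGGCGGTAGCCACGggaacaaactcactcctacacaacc

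An ERSE was found in 9 of the 27 members with a listed start and in 0.119% of the 32851 windows of all genes, and an ERSE-II in 2 of the 27 and in 0.0365% of all windows. The list was drawn from the pathway that is known for this element, so these shares only describe the list. The elements of the other members are given with the fixed bases in capitals and the spacer in lower case. Only exact matches of the fixed bases were taken, so elements of a type differ in the spacer alone. The strand given is that of the element. The second of Hsp90b1 and those of Creld2, Calr and Derl3 lie antisense to their genes. That of Dnajb11 lies past the start, at bases 8 to 18.
Hsp90b1, first (chr10:86705638-86705656, minus strand): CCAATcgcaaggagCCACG
Hsp90b1, second (chr10:86705533-86705551, plus strand): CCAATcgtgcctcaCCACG
Dnajc3 (chr14:118937827-118937845, plus strand): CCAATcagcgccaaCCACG
Creld2 (chr15:88819520-88819538, minus strand): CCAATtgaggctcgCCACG
Calr (chr8:84847075-84847093, plus strand): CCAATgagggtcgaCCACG
Canx (chr11:50325800-50325818, minus strand): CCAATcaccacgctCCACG
Pdia6 (chr12:17266491-17266509, plus strand): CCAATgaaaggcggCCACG
Derl3 (chr10:75893242-75893260, minus strand): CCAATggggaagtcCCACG
Dnajb11, ERSE-II (chr16:22857852-22857862, plus strand): ATTGGcCCACG
Members with and without an element were among those that rose. Of the 10 tested members with either element, 3 were called higher with the combination (Hspa5, Herpud1 and Syvn1) and 1 lower (Dnajc3), while Hsp90b1, with its pair of elements, changed by 0.06 ± 0.07 (adjusted p = 0.514). Of the 16 tested members whose window held neither, 3 were called higher (Dnajb9, Sel1l and Ern1) and 2 lower (P4hb and Eif2ak3). After 24 h, 7 of the 10 and 8 of the 16 stood above all other libraries of that duration; whether the groups differ was not tested. Derl3 carries an ERSE and had no counts. The same windows were also searched for another element of this response, TGACGTGG, found in 0 of the 27 members and in 0.676% of all windows. Its core GACGTG was found in 6 of the 27 (Hspa5, P4hb, Pdia5, Pdia6, Fkbp14 and Ssr1) and in 6.38% of all windows. Among those 6, Hspa5 was called higher with the combination and P4hb lower. A match is a description of the letters and not evidence of binding, and elements outside these windows were not searched.

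For 7 members the difference grew with time; Ern1, described with the sensors, was not among them (slope -0.15 ± 0.07, adjusted p = 0.149). The difference between the combination and unstimulated cells grew with each doubling of the hours by 0.44 ± 0.08 on the log2 scale for Dnajb9 (adjusted p = 0.000259), by 0.37 ± 0.07 for Herpud1 (adjusted p = 0.00037) and by 0.34 ± 0.07 for Hspa5 (adjusted p = 0.000894). The same slope was 0.30 ± 0.08 for Sdf2l1, an ER protein that works with BiP's HSP40 cofactors (adjusted p = 0.00985), 0.29 ± 0.10 for Creld2, a calcium-binding ER protein (adjusted p = 0.0436), 0.25 ± 0.07 for Syvn1 (adjusted p = 0.0187) and 0.15 ± 0.04 for Sel1l (adjusted p = 0.00758). These 7 positive slopes compare with 8.04% of all genes, and 1 member, the prolyl isomerase Fkbp14, had a negative slope (-0.34 ± 0.10, adjusted p = 0.0207) against 9.37% of all genes. All 7 positive slopes rested on the last duration: without the 24 h libraries they were 0.01 to 0.25 and none was called; the 1 member then called was Fkbp14, at -0.65. Without the 2 h libraries they were 0.33 to 0.77. The slope of Fkbp14 turned to 0.06 without the 2 h libraries and lost its call without those of 12 h (adjusted p = 0.0869), and the slope of Creld2 lost its call without the 6 h libraries (adjusted p = 0.18).

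At single durations no test is possible, and the values are log2 ratios of CPM (prior count 2); genes under 5 CPM in both libraries were left aside. After 24 h, 8 of 32 members were at least 1.5-fold higher with the combination, against 14.7% of all genes, and 0 were at least 1.5-fold lower, against 13.1%. The 8 were Hspa5 (1.45), Herpud1 (1.44), Dnajb9 (1.22), Syvn1 (1.06), Creld2 (1.00), Sdf2l1 (0.90), Sel1l (0.61) and Manf (0.60). After 12 h, 2 were higher (Hspa5 and Herpud1), against 12.4%, and 1 lower (Fkbp14), against 9.8%. After 6 h, 1 was higher (Ern1), against 11.3%, and 2 were lower (Fkbp14 and Eif2ak3), against 6.93%. After 2 h, 1 was higher (Ern1), against 5.91%, and 0 were lower, against 3.85%. The median ratio of the 32 members was 0.05, -0.12, 0.04 and 0.20 after 2, 6, 12 and 24 h.

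**Figure D2:**
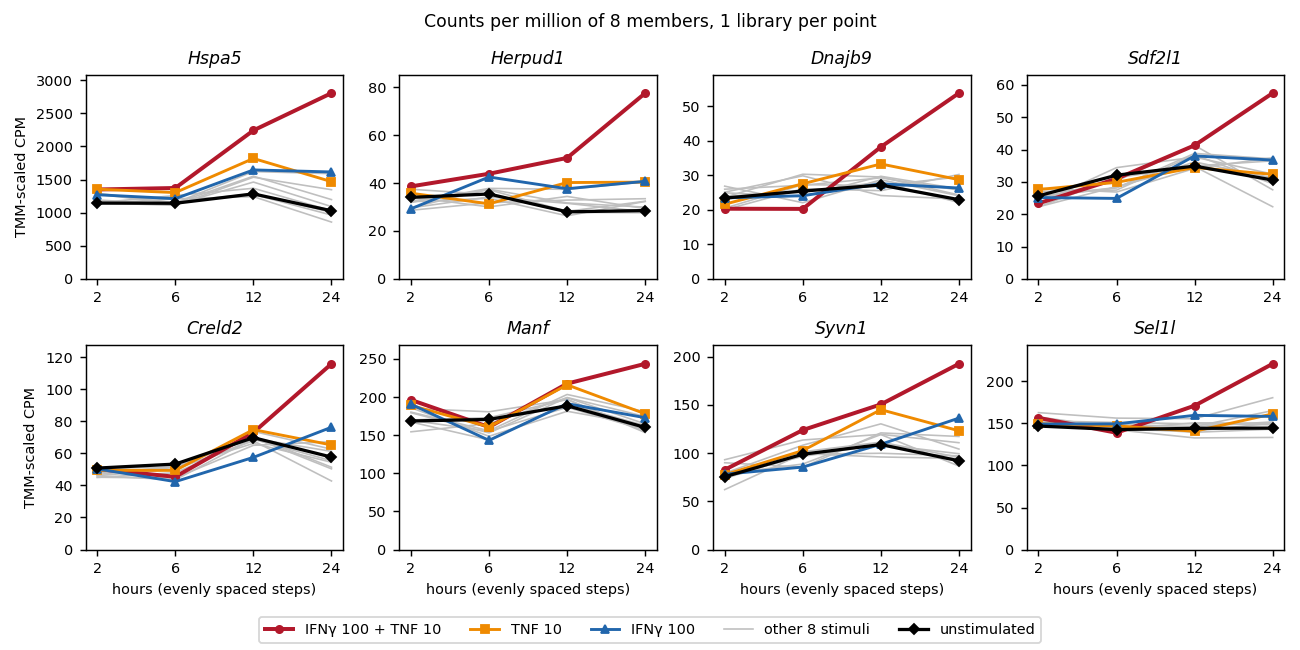
CPM of 8 members against hours of stimulation (evenly spaced steps), 1 line per condition, with the combination in red, 10 ng/ml TNF in orange, 100 ng/ml IFNγ in blue, the other 8 cytokine conditions in grey and unstimulated cells in black. The 8 are the members at least 1.5-fold above unstimulated cells after 24 h with the combination. A high end of the red line was thus largely set by that choice. In each panel the red line ends highest, for Hspa5 at 2806 CPM, against 858 to 1615 CPM in the other 11 libraries of 24 h. Of all 32 tested members, 18 ended above the other libraries.

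Several of the late genes were not above unstimulated cells at 2 and 6 h. Dnajb9 stood at 20.3, 20.3, 38.2 and 53.8 CPM with the combination, against 23.4, 25.4, 27.2 and 22.9 CPM in unstimulated cells, so the combination was lower at 2 and 6 h and higher at 12 and 24 h. Sdf2l1 stood at 23.4, 31, 41.3 and 57.5 CPM with the combination, against 25.7, 32.1, 34.9 and 30.6 CPM in unstimulated cells. Its mean change was 0.30 ± 0.13 (adjusted p = 0.0639). Creld2 stood at 50.2, 45.4, 73.0 and 116 CPM with the combination, against 50.8, 53.3, 69.8 and 57.7 CPM in unstimulated cells, with a mean change of 0.27 ± 0.14 (adjusted p = 0.118). For all 3 the values at 2 and 6 h were at or below the unstimulated ones. Leaving out the 24 h libraries took the mean change of Dnajb9 to 0.03 (adjusted p = 0.915) and that of Creld2 to -0.05, and leaving out 12 h ended the call of Dnajb9 (adjusted p = 0.203).

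Manf and Sel1l moved less. Manf stood at 196, 161, 218 and 244 CPM with the combination, against 169, 171, 189 and 160.1 CPM in unstimulated cells, higher at 3 of 4 durations. Sel1l stood at 157, 139, 171 and 221 CPM with the combination, against 147, 143, 144 and 144 CPM in unstimulated cells, also higher at 3 of 4. Without the 24 h libraries the change was 0.12 for Manf (adjusted p = 0.253) and 0.11 for Sel1l (adjusted p = 0.149). Dnajc3 and P4hb were lower with the combination at all 4 durations but by little: Dnajc3 stood at 143, 114, 145 and 136 CPM with the combination, against 151, 154, 156 and 143 CPM in unstimulated cells. P4hb stood at 889, 728, 686 and 756 CPM with the combination, against 899, 833, 801 and 817 CPM in unstimulated cells. Both calls were weak: that of P4hb was lost without the libraries of 6, 12 or 24 h (-0.10, -0.10 and -0.14), and that of Dnajc3 without those of 2, 6 or 12 h (-0.19, -0.07 and -0.18).

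Set against all other conditions of the same duration, 24 h with the combination stood apart for more members. After 24 h, 18 of 32 members were above the range of the other 11 libraries, against 20.6% of all genes, and 1 (Atf6) was below it, against 21.7%. Hspa5, at 2806 CPM, compared with a lowest, median and highest of 858, 1092 and 1615 CPM in the other 11. Herpud1, at 77.5 CPM, compared with 27.6, 32.3 and 40.7 CPM, and Dnajb9, at 53.8 CPM, with 22.1, 25.7 and 30.2 CPM. The 18 also held the general chaperones Hsp90b1, Hyou1, Calr and Dnajb11, the isomerases Pdia3 and Pdia4, the degradation factors Edem1, Derl1 and Derl2, and Xbp1. At the earlier durations the members did not lean the same way. After 2 h, 6 were above, against 9.15% of all genes, and 3 below, against 12.9%. After 6 h, 3 were above, against 18.5%, and 12 below, against 18.8%. After 12 h, 8 were above, against 20.7%, and 2 below, against 19%.

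The scaling of the libraries bears on these counts. Without the TMM factors, that is with CPM of the plain library totals, the median ratio of all genes between the combination and unstimulated cells shifted by -0.09, -0.20, -0.20 and -0.17 after 2, 6, 12 and 24 h. On that scale 12 members were above the other libraries after 24 h, against 12.6% of all genes, and 1 was below, against 33.7%. After 6 h, 0 were above, against 9.86% of all genes, and 20 below, against 36.5%. With plain totals 6 members were at least 1.5-fold higher after 24 h, against 11.1% of all genes. The mean log2 ratio with plain totals was 0.52 for Hspa5, 0.52 for Herpud1, 0.33 for Syvn1 and 0.24 for Ern1, and the shift by itself took the small positive values of 13 uncalled members, among them Hsp90b1, Hyou1, Calr and Xbp1, below 0. The library of the combination at 24 h had the highest total (9663207 counts) and the lowest share of mitochondrial counts, 0.513% against 0.964% in unstimulated cells at 24 h and 0.513% to 1.44% over all libraries. The part of depth and of mitochondrial share in these results was not tested.

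**Figure D3:**
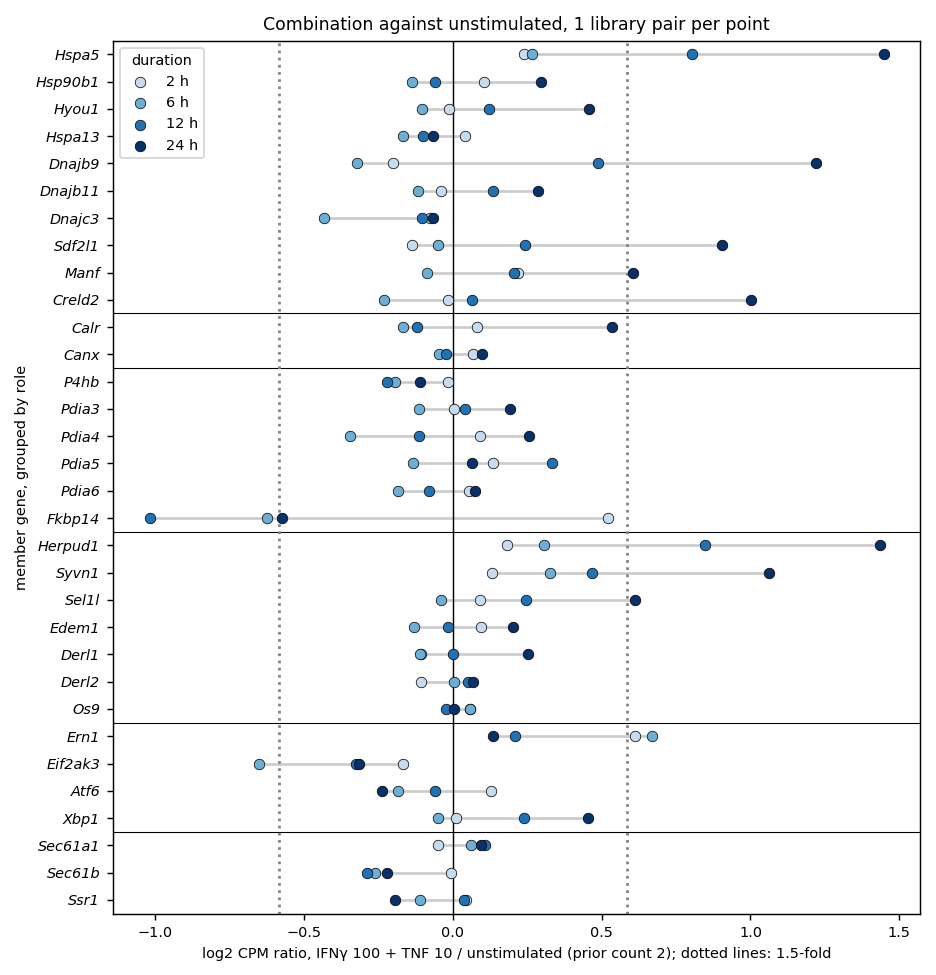
Log2 ratio of CPM (prior count 2) between the combination and unstimulated cells for each tested member after 2, 6, 12 and 24 h; dotted lines mark 1.5-fold in either direction. After 24 h 8 members lie beyond the upper line, up to 1.45 for Hspa5, and after 2 h only Ern1 does.

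None of the other folding members, P4hb and Dnajc3 apart, was called with the combination. Hsp90b1, the HSP90 of the ER (also called GRP94), stood at 1576, 1248, 1701 and 2002 CPM with the combination, against 1466, 1371, 1774 and 1629.6 CPM in unstimulated cells, with overlapping groups. Hyou1, a nucleotide exchange factor of BiP, changed by 0.13 ± 0.08 (adjusted p = 0.177). The lectin chaperones calreticulin and calnexin hold newly made glycoproteins, and neither was called. Calr stood at 843, 715, 990.2 and 1160.0 CPM with the combination, against 797, 804, 1076 and 800.2 CPM in unstimulated cells. Canx stood at 1192, 1005, 1131 and 1102 CPM with the combination, against 1138, 1038, 1149 and 1029.8 CPM in unstimulated cells. Of the 6 disulfide and prolyl isomerases, which form disulfide bonds or turn proline bonds, P4hb was the 1 called with the combination. Pdia6 stood at 549, 438, 516 and 579.8 CPM with the combination, against 529, 497, 545 and 550.3 CPM in unstimulated cells. Fkbp14, the isomerase with the fewest counts, stood at 18.9, 7.02, 6.37 and 12.4 CPM with the combination, against 13.1, 11, 13.2 and 18.5 CPM in unstimulated cells, with a mean change of -0.36 ± 0.19 (adjusted p = 0.134). Of the members not yet given, Hspa13, Dnajb11, Pdia3, Pdia4, Pdia5, Edem1, Derl1, Derl2, Os9, Sec61a1 and Ssr1 changed by -0.07 (Hspa13) to 0.10 (Pdia5) with the combination, and none was called. Edem1 and the Derlins act in the removal of misfolded proteins, and of the 7 members of that role 3 were called (Herpud1, Syvn1 and Sel1l), while Edem1, Derl1, Derl2 and Os9 changed by less than their standard errors.

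The 3 sensors did not move together. Ern1 stood higher at 2 h in every condition with TNF, and over the 4 durations it was called with 10 ng/ml TNF and with the combination. After 2 h it stood at 193 CPM with the combination and at 226, 235 and 216 CPM with 0.1, 1 and 10 ng/ml TNF, against 126 CPM in unstimulated cells; over the 8 libraries of 2 h without TNF it lay between 117 and 142 CPM, so the groups with and without TNF did not overlap at 2 h. After 6, 12 and 24 h it stood at 139, 139 and 165 CPM with 0.1 ng/ml TNF, at 193, 161 and 160.3 CPM with 1 ng/ml and at 206, 191 and 197 CPM with 10 ng/ml, against 119, 154 and 163 CPM in unstimulated cells. The change over the 4 durations was 0.25 ± 0.14 with 0.1 ng/ml TNF (adjusted p = 0.991) and 0.43 ± 0.14 with 1 ng/ml (adjusted p = 0.0871). It was 0.54 ± 0.14 with 10 ng/ml (adjusted p = 0.00528), where Ern1 was the 1 member called higher, against 9.83% of all genes. With 100 ng/ml IFNγ it stood at 125, 136, 145 and 136 CPM, a change of -0.05. Without the 6 h libraries the change was 0.46 with 10 ng/ml TNF (adjusted p = 0.0876) and 0.33 with the combination (adjusted p = 0.134). With the combination it was 0.65 in the 2 h and 6 h libraries alone (adjusted p = 0.00437) and 0.18 in those of 12 h and 24 h (adjusted p = 0.111).

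**Figure D4:**
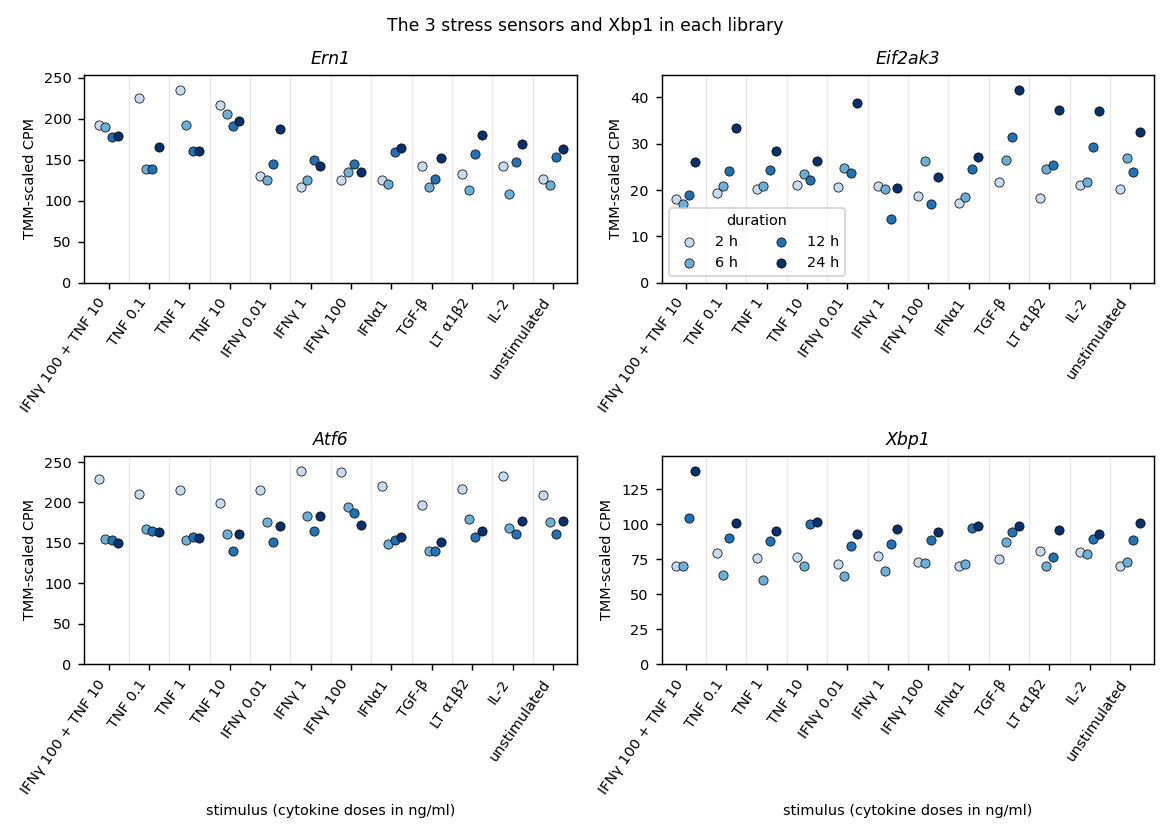
CPM of Ern1, Eif2ak3, Atf6 and Xbp1 in all 48 libraries, by condition, coloured by duration. For Ern1 the 4 conditions with TNF stand at 193 to 235 CPM after 2 h, above the 117 to 142 CPM of the other 8 libraries of that duration.

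Eif2ak3, the gene of PERK, was low throughout and was called lower with the combination and with 1 ng/ml IFNγ. It stood at 18, 17, 18.9 and 26.1 CPM with the combination, at 18.8, 26.3, 17 and 22.9 CPM with 100 ng/ml IFNγ and at 20.9, 20.3, 13.7 and 20.5 CPM with 1 ng/ml IFNγ, against 20.2, 26.9, 23.8 and 32.5 CPM in unstimulated cells. With 1 ng/ml IFNγ it changed by -0.43 ± 0.14 (adjusted p = 0.0251) and was the 1 member called lower, against 5.47% of all genes; it was lower at 3 of 4 durations. The call with 1 ng/ml IFNγ was lost without the libraries of 6, 12 or 24 h (-0.43, -0.34 and -0.34), as was the call with the combination (-0.26, -0.38 and -0.39). Of its exons, 8.05% lie opposite another annotated transcript (Gm43292), and whether the counting used strand is not given in the sources used here.

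Atf6, the gene of the sensor cut in the Golgi, was lower with TGF-β (-0.21 ± 0.05, adjusted p = 0.00453), the 1 member called lower there against 3.25% of all genes. It stood at 197, 140.0, 141 and 151 CPM with TGF-β, against 209, 176, 160.5 and 177 CPM in unstimulated cells, lower at each duration; without the 6 h libraries the change was -0.17 (adjusted p = 0.108). At each duration Atf6 also stood lower with the combination and with 10 ng/ml TNF than with 100 ng/ml IFNγ, although the ranges overlapped. It stood at 229, 155, 154 and 149.8 CPM with the combination and at 199, 161, 139.7 and 161 CPM with TNF, against 237, 194, 187 and 172 CPM with IFNγ. With none of these conditions was Atf6 called against unstimulated cells. Xbp1 stood at 70.4, 70.6, 105 and 138 CPM with the combination, against 69.9, 73.2, 88.6 and 101 CPM in unstimulated cells. Its mean change of 0.18 ± 0.08 was not called (adjusted p = 0.0731), although its 24 h value lay above the 93.0 to 102 CPM of the other 11 libraries.

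Sec61b, the β subunit of the channel through which new proteins enter the ER, was lower with 100 ng/ml IFNγ. It stood at 48.1, 46, 40.9 and 44.2 CPM with 0.01 ng/ml IFNγ, at 50.5, 36, 28.8 and 32.9 CPM with 1 ng/ml and at 48.9, 33.9, 24.7 and 28.3 CPM with 100 ng/ml, against 50.7, 49.7, 40.7 and 43 CPM in unstimulated cells. At both higher doses the values at 6, 12 and 24 h were below the unstimulated ones, and at 2 h they were close. The change was -0.04 with 0.01 ng/ml, -0.32 ± 0.13 with 1 ng/ml (adjusted p = 0.0881) and -0.45 ± 0.13 with 100 ng/ml (adjusted p = 0.0108), where Sec61b was the 1 member called lower, against 9.3% of all genes. With IFNα1 it was -0.16. The call with 100 ng/ml was lost without the libraries of 6, 12 or 24 h (-0.41, -0.36 and -0.39), and without those of 2 h the change was -0.62 (adjusted p = 8.27e-06). The channel's main subunit, Sec61a1, and Ssr1, a subunit of the translocon-associated protein complex, were not called in any comparison with unstimulated cells.

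With each cytokine alone, 1 member was called against unstimulated cells, Ern1 with 10 ng/ml TNF and Sec61b with 100 ng/ml IFNγ. Hspa5 stood at 1355, 1303, 1819 and 1468 CPM with 10 ng/ml TNF and at 1271, 1211, 1646 and 1615 CPM with 100 ng/ml IFNγ, above the unstimulated value at each duration; the changes were 0.36 ± 0.14 (adjusted p = 0.0658) and 0.31 ± 0.14 (adjusted p = 0.0969). Herpud1 stood at 35.7, 31.3, 40.2 and 40.4 CPM with TNF and at 29.2, 42.5, 37.6 and 40.7 CPM with IFNγ. In edgeR's quasi-likelihood test no slope over time was called for any member with 10 ng/ml TNF (2.43% of all genes). The same held with 100 ng/ml IFNγ (6.9% of all genes). At an unadjusted p under 0.05 there were 2 and 6 members, and DESeq2 called 0 in both. The percentages are for the adjusted p, and shares of all genes at the unadjusted p are not given here. With 1 ng/ml IFNγ, a slope looked at after its value was seen, 1 member was called lower (2.7% of all genes): Fkbp14, at -0.43 ± 0.11 (adjusted p = 0.0145). It stood at 16.9, 11.9, 6.68 and 8.51 CPM with 1 ng/ml IFNγ, against 13.1, 11, 13.2 and 18.5 CPM in unstimulated cells. That call was lost without the libraries of 2, 12 or 24 h (-0.63, -0.41 and -0.44) and against IL-2 (-0.29). After 24 h, 0 members were at least 1.5-fold higher or lower with TNF, against 8.16% and 6.08% of all genes. With IFNγ 1 was higher (Hspa5), against 9.5%, and 2 were lower (Fkbp14 and Sec61b), against 7.87%.

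The direct comparisons between the 3 groups share libraries with each other and are given side by side. The combination against 100 ng/ml IFNγ had 5 members called higher, against 8.49% of all genes: Herpud1 (0.50 ± 0.14, adjusted p = 0.0115), Syvn1 (0.41 ± 0.11, adjusted p = 0.0115), Ern1 (0.45 ± 0.14, adjusted p = 0.0223), Manf (0.23 ± 0.07, adjusted p = 0.0305) and Hspa5 (0.43 ± 0.14, adjusted p = 0.0309). In the same comparison 1 member was lower, Atf6 (-0.21 ± 0.05, adjusted p = 0.0028), against 5.42%. The combination against 10 ng/ml TNF had 2 called higher, against 9.12%: Herpud1 (0.51 ± 0.14, adjusted p = 0.0085) and Sel1l (0.20 ± 0.07, adjusted p = 0.0396). These calls depended on single durations. Against IFNγ, 0 of the 6 members were called without the 12 h libraries, 2 (Herpud1 and Manf) without those of 6 h and 2 (Syvn1 and Atf6) without those of 24 h. Against TNF, 0 of the 2 were called without 24 h, with Herpud1 at 0.31, and 1 without 12 h.

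TNF at 10 ng/ml against IFNγ at 100 ng/ml had 2 members called higher, against 4.9% of all genes, and 1 lower, against 5.48%. Ern1 was higher by 0.59 ± 0.14 (adjusted p = 0.00316) and the isomerase Pdia6 by 0.18 ± 0.05 (adjusted p = 0.0243), and Atf6 was lower (-0.26 ± 0.05, adjusted p = 0.000283). Pdia6 stood at 565, 475, 557 and 589 CPM with TNF, against 538, 444, 474 and 472 CPM with IFNγ, and its call was lost without 12 h (0.16) or 24 h (0.12). The call of Atf6 was lost without 12 h (-0.21, adjusted p = 0.0581). IFNγ at 100 ng/ml against IFNα1 had Atf6 higher (0.23 ± 0.05, adjusted p = 0.00187), against 9.48% of all genes, and Os9, a lectin that hands misfolded glycoproteins to degradation, lower (-0.21 ± 0.05, adjusted p = 0.00287), against 6.61%. Neither was called without the 12 h libraries, and Atf6 was not called without those of 6 h (0.16).

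Whether both cytokines together did more than the sum of their separate log2 changes was asked of each gene. At the adjusted threshold 0 members were called, against 0.0819% of all genes, and DESeq2 called 0. At an unadjusted p under 0.05 there were 2 members, and the share of all genes at that p is not given here. The excess over the sum was 0.07 ± 0.19 for Hspa5, 0.27 ± 0.20 for Herpud1, 0.17 ± 0.16 for Syvn1, 0.21 ± 0.23 for Dnajb9, 0.27 ± 0.19 for Sdf2l1 and 0.28 ± 0.20 for Creld2. A p that misses the threshold does not show that the changes added up exactly, and an excess at 24 h alone was not tested.

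In the remaining conditions 0 members were called by edgeR's quasi-likelihood test. Percentages of all genes in this paragraph are for an adjusted p under 0.05, and shares at an unadjusted p are not given. With 1 ng/ml TNF, where 2.72% of all genes were called, 2 members had an unadjusted p under 0.05 and DESeq2 called 1; with IFNα1 (9.27% of all genes) 2 members had such a p and DESeq2 called 0. With 0.1 ng/ml TNF (0.0164% of all genes), 0.01 ng/ml IFNγ (0%), lymphotoxin α1β2 (0%) and IL-2 (0%), 0 members had an unadjusted p under 0.05 and DESeq2 called 0. Between doses, 0 members were called for 100 against 1 ng/ml IFNγ (0% of all genes; 0 at an unadjusted p under 0.05) and 0 for 10 against 1 ng/ml TNF (0.238% of all genes; 1 at an unadjusted p under 0.05), and DESeq2 called 0 in both. For the BiP gene itself, the order at 24 h was 2806 CPM with the combination, 1615 with 100 ng/ml IFNγ, 1589 with 1 ng/ml IFNγ, 1468 with 10 ng/ml TNF and 1347 with IFNα1, while the other 7 libraries lay between 858 and 1197 CPM, with TGF-β the lowest; neighbours in this order have no replicates and cannot be ranked beyond that.

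Other lists of genes of the pathway, chosen with earlier results of these data known, showed a different balance. Leaving out durations was not tried for these lists. Of 18 tested genes of the PERK and ATF4 arm that are not members, 14 were called higher (20.9% of all genes) and 0 lower (21.2%) with the combination. Their median change was 0.63 (all genes -0.03). The increase was led by Atf3, a stress-induced repressor (2.47 ± 0.21, adjusted p = 6.53e-12), Chac1, an enzyme that degrades glutathione (1.58 ± 0.25, adjusted p = 2.86e-06), and Nupr1, a stress-induced chromatin protein (1.52 ± 0.15, adjusted p = 1.91e-10). With 10 ng/ml TNF, 6 of the 18 were higher (9.83% of all genes) and 0 lower, and with 100 ng/ml IFNγ 11 were higher (12.8% of all genes) and 0 lower. Other genes of ER-associated degradation were split, with 4 of 23 higher and 3 lower with the combination; the ubiquitin ligase gene Rnf139 rose by 0.80 ± 0.10 and the mannosidase-like gene Edem3 by 0.44 ± 0.08, while the ligase gene Rnf5 fell by 0.30 on the log2 scale.

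Other folding enzymes leaned lower. Of 21 genes of oxidative folding and prolyl hydroxylation, 2 were higher with the combination and 8 lower, with a median of -0.14: the oxidase gene Ero1l rose by 0.27 ± 0.06, while Erp29 (-0.46 ± 0.07) and Txndc12 (-0.39 ± 0.07) fell. Of 18 genes of N-glycan assembly and glycoprotein folding, 1 was higher (Rpn2, 0.12 ± 0.04) and 5 lower, among them Alg2 (-0.43 ± 0.08) and Dad1 (-0.33 ± 0.11). Of 31 genes of the translocon, signal peptidase, HSP70 exchange and early secretory transport, 5 were higher and 3 lower, led by the coat subunit gene Sec23b (0.63 ± 0.06, adjusted p = 1.15e-11). Of 16 further ER stress factors and proteases, 6 were higher and 4 lower, with Bak1 (0.90 ± 0.09), Traf2 (0.80 ± 0.12) and Tmbim6 (0.55 ± 0.06) the largest increases and the kinase gene Map3k5 (-0.68 ± 0.12) the largest decrease. The counts for the combination stand beside 20.9% of all genes called higher and 21.2% called lower.

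Many members changed with time in culture, as did many genes in general; 12 libraries stand on each side of these comparisons and 4 on each side of those between conditions, so the numbers of calls cannot be set against each other. Averaged over the 12 conditions, 4 members were higher after 6 h than after 2 h (29.6% of all genes) and 16 lower (27.5%). After 12 h, 14 were higher than at 2 h (34.2%) and 8 lower (31.1%), and after 24 h, 10 were higher than at 2 h (34.8%) and 11 lower (32.5%). After 24 h against 12 h, 6 were higher (15.2%) and 10 lower (16.9%). Lower at 6 h than at 2 h were, among others, Hspa13, an HSP70-like protein (-0.29 ± 0.03), Pdia6 (-0.21 ± 0.03), Pdia4 (-0.21 ± 0.05) and Hsp90b1 (-0.21 ± 0.04). In the unstimulated, IL-2 and lymphotoxin libraries alone these were -0.29, -0.11, -0.09 and -0.17, and Pdia4 was not called (adjusted p = 0.117). P4hb was lower at each later duration, with -0.17 ± 0.03, -0.20 ± 0.03 and -0.24 ± 0.03 after 6, 12 and 24 h against 2 h. At 12 h Syvn1 (0.58 ± 0.07), Sdf2l1 (0.56 ± 0.08), Creld2 (0.52 ± 0.08), Calr (0.34 ± 0.05) and Hspa5 (0.30 ± 0.08) were above their 2 h level, and between 12 and 24 h Calr (-0.31 ± 0.05), Dnajb11 (-0.25 ± 0.04), Hspa5 (-0.23 ± 0.08) and Manf (-0.20 ± 0.04) fell. The late rise with the combination thus ran against the average course of Hspa5 and Manf over the same hours.

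**Figure D5:**
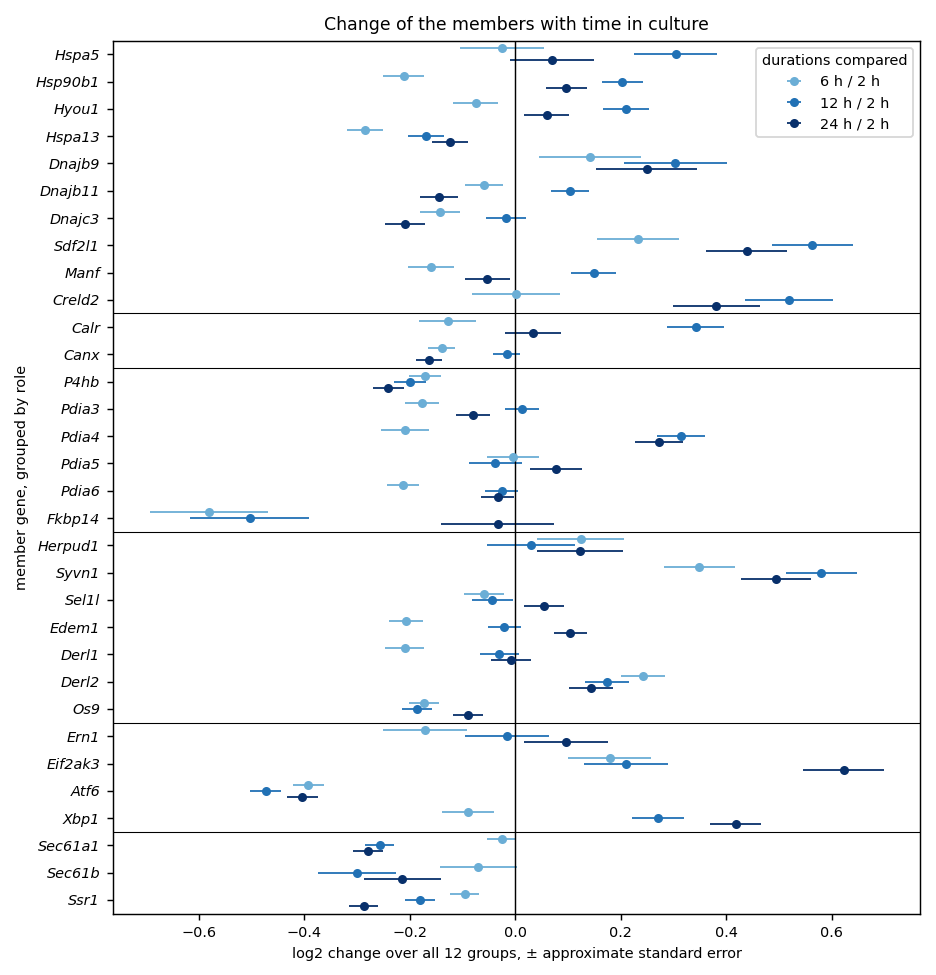
Log2 change with time in culture, averaged over the 12 conditions, after 6, 12 and 24 h against 2 h for each tested member, with approximate standard errors. Eif2ak3 ends highest at 0.62 after 24 h, and Atf6 lowest at -0.40.

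The sensors diverged with time as well. After 24 h against 2 h, Eif2ak3 was higher by 0.62 ± 0.08 (adjusted p = 2.93e-09) and Xbp1 by 0.42 ± 0.05 (adjusted p = 8.81e-10), while Atf6 was lower (-0.40 ± 0.03, adjusted p = 2.51e-15), as were the translocon genes Ssr1 (-0.29 ± 0.03), Sec61a1 (-0.28 ± 0.03) and Sec61b (-0.21 ± 0.07). In the unstimulated, IL-2 and lymphotoxin libraries alone the change of Sec61b was 0.07, that is of the opposite sign. The column names of the table give the same 12 index sequences for 2 h and 12 h and another 12 for 6 h and 24 h, and sample numbers of 50 to 73 for 2 h and 6 h and of 74 to 97 for 12 h and 24 h. This numbering would place 2 h with 6 h and 12 h with 24 h in a sequencing pool, although no source used here states the pools; between these pairs of durations, pool and time cannot be told apart. Of the non-member lists over 24 h against 2 h, 13 of 18 genes of the PERK and ATF4 arm were higher and 3 lower, led by Ddit3 (1.15 ± 0.17), the gene of CHOP, and Nupr1 (1.15 ± 0.09). By contrast, 16 of 23 other degradation genes were lower, led by the conjugating enzyme gene Ube2j1 (-0.57 ± 0.02), and 4 higher. Of the 31 other genes of the translocon and early secretory transport 18 were lower and 5 higher. These counts stand beside 34.8% of all genes called higher and 32.5% called lower.

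Per kilobase of exon, the most abundant members in unstimulated cells were chaperones and isomerases. After 2 h Hsp90b1 had 364 CPM per kb, Pdia3 346, P4hb 314, Calr 277, Hspa5 271 and Canx 242. The sensors were far lower: Atf6 had 22.7 CPM per kb, Ern1 15.4 and Eif2ak3 3.36, beside 21.5 for Xbp1. Herpud1 had 14.6, Dnajb9 9.18 and Fkbp14 3.15. The genes with the largest increases after 24 h with the combination thus included 1 of the most abundant chaperones and several genes of low level. These lengths are from GENCODE vM21 and assume that all annotated exons are used. Calr has an annotated pseudogene (Calr-ps) that could share its reads, and 10.3% of the exons of Hsp90b1, 8.16% of Sec61a1, 5.01% of Fkbp14 and 4.71% of Manf lie opposite another annotated gene.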

How the data were processed

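RNA was sequenced from poly(A)-selected, stranded libraries, per the labels' protocols; HISAT and GRCm38 are named in the submitters' processing notes, and no source used here names the counting tool, its annotation or strand setting. The authors deposited raw read counts per gene and library. The 33 members and all gene lists were chosen with earlier results of these data known. Counts were filtered with edgeR (minimum count 10, minimum total 15) and scaled by TMM, leaving 12203 of 49671 genes, and tested by the quasi-likelihood test (edgeR 4.0.16, R 4.3.3) with condition and duration as terms over all 48 libraries, two-sided, with Benjamini-Hochberg adjustment over all tested genes at 0.05. Slopes per doubling of hours came from a model with condition-specific slopes. Approximate standard errors were taken as the log2 change over the root of the F statistic. CPM values are TMM-scaled; single-duration ratios used a prior count of 2. The same-duration libraries of different conditions deviated together (lowest correlation 0.261, median 0.528), and duration stayed in the model as the term that pairs the libraries. Shared change with time in culture enters these correlations, so they do not show a pairing beyond time. Values in every library were given for the 12 members with the smallest adjusted p against unstimulated cells, the 3 with the largest range in unstimulated, IL-2 and lymphotoxin libraries and those with a promoter element, with Xbp1 added after its values were seen; from the other lists, called genes with the largest change were named, up to 3 in each direction. DESeq2 1.42.0, other scaling, filters and references, and leaving out durations were the alternatives. The code was tested on simulated data.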

Additional observations from a re-analysis of the deposited data

Results flagged for a closer look

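In 3 of 80 examined groups of 4 libraries (20 genes), 1 duration stood far from the other 3: Atf6 with the combination at 2 h (229 CPM), Calr in unstimulated cells at 12 h (1076 CPM) and Dnajb11 in unstimulated cells at 24 h (96.3 CPM). Chance flags about 1 group in 20, and each group of 4 spans the durations.

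The course over time differed between the combination and unstimulated cells for 8 members, by the slope test given in the report (log2 per doubling of hours): Dnajb9 0.44, Herpud1 0.37, Hspa5 0.34, Sdf2l1 0.30, Creld2 0.29, Syvn1 0.25, Sel1l 0.15 and Fkbp14 -0.34. Of all genes, 8.04% had a called positive slope and 9.37% a called negative one. Without the 24 h libraries none of these positive slopes was called, and without those of 2 h the slope of Fkbp14 was 0.056.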

How the results depend on the processing

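Over 744 recomputed values of 118 pairs of member and comparison, 560 kept direction and side of the threshold, 165 lost the call, 8 gained it and 11 reversed. The 11 were the combination's slope of Fkbp14 without 2 h (0.056, with -0.65 without 24 h), its change of Creld2 without 24 h (-0.054, with 0.43 without 6 h), its changes in the 2 h and 6 h libraries alone of Dnajb9 (-0.26), Sdf2l1 (-0.084), Creld2 (-0.12) and Xbp1 (-0.018), and, in the unstimulated, IL-2 and lymphotoxin libraries alone, Calr (0.024) and Manf (0.043) for 6 h against 2 h, Sec61b (0.071) for 12 h against 2 h, and Dnajb9 (-0.000562) and Sec61b (0.072) for 24 h against 2 h. The cause was not tested. The call of Hspa5 with the combination held under 11 of 12 alternatives, those of Herpud1 and Syvn1 under 10, that of Dnajb9 under 5, P4hb under 3 and Dnajc3 under 1.

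Without the replicate block, that is without the duration term that pairs the libraries, the combination against unstimulated cells had 4 members called in place of 10, the combination against IFNγ 0 in place of 6 and against TNF 1 in place of 2, TNF against IFNγ 1 in place of 3, and IFNγ at 100 ng/ml (0), IFNγ at 1 ng/ml (0), TGF-β (0) and IFNγ against IFNα1 (0) lost all. Leaving out 1 duration gave 5 to 14 members for the combination, 0 to 2 for TNF at 10 ng/ml, 0 to 3 for IFNγ at 100 ng/ml, 0 to 4 for IFNγ at 1 ng/ml, 0 to 1 for TGF-β, 0 to 9 and 0 to 2 for the combination against IFNγ and TNF, 1 to 4 for TNF against IFNγ, 0 to 3 for IFNγ against IFNα1, 1 to 11 for the combination's slopes 0 to 2 for the slopes with IFNγ at 100 ng/ml and 0 to 1 for those at 1 ng/ml (1 with all libraries).

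In the same order of comparisons, the 2 h and 6 h libraries alone gave 2 for the combination, 0 for both IFNγ doses and TGF-β, 1 and 0 for the combination against IFNγ and TNF, 1 for TNF against IFNγ, 0 for IFNγ against IFNα1 and 1 for TNF at 1 ng/ml; the 12 h and 24 h libraries alone gave 3 for TNF, 8 and 6 for IFNγ at 100 and 1 ng/ml, 14 and 7 for the combination against IFNγ and TNF, 5 for TNF against IFNγ and 7 for IFNγ against IFNα1. Fitting the compared groups alone gave 1 for the combination, 2 for TNF, 0 for IFNγ at 1 ng/ml, 1 for IFNα1, 2 and 1 for the combination against IFNγ and TNF, 1 for TNF against IFNγ, 0 for IFNγ against IFNα1, 4 for the combination's slopes and 1 for those with 100 ng/ml IFNγ. IL-2 as the comparison group gave 2 for TNF, 3 and 2 for IFNγ at 100 and 1 ng/ml, 2 for IFNα1 and 2 for the slopes with either dose of IFNγ. DESeq2 gave 2 for TNF, 1 for TNF at 1 ng/ml and 2 for IFNγ, and its size factors 2 for IFNγ and 0 members below the other libraries at 24 h. With plain totals, 1, 0 and 3 members were above and 5, 20 and 10 below the other libraries at 2, 6 and 12 h (all genes 5.54%, 9.86% and 11% above and 21.3%, 36.5% and 35.4% below), and 1 was at least 1.5-fold lower at 24 h (all genes 20.1%). Slopes could not be fitted within 2 durations. Apart from the plain totals, shares of all genes are not given for the alternatives in this and the preceding paragraph. Their counts show only how the calls of the members moved. At 1 count per 0.103 to 0.178 CPM, depth limits most the members with the fewest counts, Fkbp14 (4639 over all libraries), Pdia5 (7153) and Eif2ak3 (8735).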

Other observations

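Genes that load peptides on MHC class I in the ER were higher in the 3 main conditions: 6 of 6 tested were called higher with the combination, with 10 ng/ml TNF and with 100 ng/ml IFNγ alike, with a median of 2.06 on the log2 scale for the combination. With the combination, Tapbpl rose by 3.11, Tap2 by 2.91 and Tap1, a subunit of the peptide transporter, by 2.23. Of all genes, 20.9% were called higher with the combination, 9.83% with TNF and 12.8% with IFNγ.

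The cytosolic heat shock list had 14 tested genes, of which the combination raised 8 and lowered 0 (TNF raised 2 and IFNγ 3, and neither lowered any). Of all genes, 20.9% were called higher with the combination, 9.83% with TNF and 12.8% with IFNγ. Called lower were 21.2% with the combination and 9.3% with IFNγ. Leaving out durations was not tried for this list. Hspa1a, an inducible cytosolic HSP70, rose by 1.92 ± 0.46 (edgeR adjusted p = 0.000765), Hspa1b by 0.86 ± 0.33 (adjusted p = 0.0364) and its cofactor gene Dnajb1 by 0.52 ± 0.10 (adjusted p = 3.88e-05). Hspa1a and Hspa1b are near-identical copies, and how the counting split their reads is not given in the sources used here.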
